A study of Mus musculus with 6 samples.

Results

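The genes described here encode 10 transcription factors of natural killer (NK) cell lineage and maturation: Eomes, Tbx21, Bhlhe40, Irf2, Nfil3, Id2, Prdm1, Zeb2, Gata3 and Runx3. They are 10 of 21900 protein-coding genes in the RefSeq table of mouse build GRCm38.p6. The question was where Ikaros, a zinc finger DNA-binding protein and the product of Ikzf1, was found near them. A peak was counted for a factor gene when the authors' gene column named the gene, or when it overlapped Eomes or Bhlhe40 with 10 kb on each side. By that rule 4 of the 10 genes had a peak: Eomes, Bhlhe40 and Irf2 in all 3 libraries, and Prdm1 in 1. This rule is wider for Eomes and Bhlhe40 than for the rest. With 10 kb around every gene, 5 of the 10 had a peak in any list and 3 a region in all lists, against 12.4% and 2.73% of coding genes. By the authors' column alone it was 2 and 1 of the 10, against 9.39% and 2.0%. By the first rule the other 6 genes had none: Tbx21, Nfil3, Id2, Zeb2, Gata3 and Runx3, though Runx3 had a peak in 1 list within 10 kb. The rule took 10 of the 4111 listed peaks, which merged into 4 of 2526 regions.

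The study performed chromatin immunoprecipitation with sequencing for Ikaros on splenic NK cells expanded in culture with IL-15 at 50 ng/ml. The 6 samples were 3 of wild type (WT) genotype and 3 labelled Ikzf1 KO, in which the gene is deleted in cells that express NKp46, the receptor encoded by Ncr1. Every sample was made with the same anti-Ikzf1 antibody and the same IL-15 culture. Results below come from 3 peak lists, 1 for each WT library, and the KO libraries were not analysed here. The list called replicate 3 has peak names with Ikzf1-WT-R4. It was matched by the description Ikzf1-WT-4 to the sample titled rep 3. The control library of the peak calls is not given. No value here is therefore known to separate antibody signal that needs Ikaros from other signal. The labels give no strain, age or sex for the animals, and do not say whether each library had its own animal or culture. Differences between lists may thus be technical.

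NK cells are innate lymphocytes that kill infected and tumour cells. Their development runs through a series of transcription factors: Nfil3 and Id2 act early in commitment, the T-box factors Eomes and Tbx21 (T-bet) direct maturation and effector function, and Zeb2, Prdm1 (Blimp-1) and Irf2 act in later maturation. Gata3 and Runx3 also act in NK cell development and homing, and Bhlhe40 is a basic helix-loop-helix repressor induced in activated lymphocytes. Ikaros binds DNA at sites with a GGGAA core and can both repress and activate genes.

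The lists of replicates 1, 2 and 3 held 685, 2084 and 1342 peaks, with median fold enrichments of 5.10, 4.73 and 4.99. Fold enrichment is the authors' own value for each peak, a linear ratio of the signal over the background, and is used here to describe and rank peaks within 1 list. Percentiles are those ranks, with 100 for the strongest peak. The lists hold no read counts, so depth is unknown. A peak list shows neither expression nor cell identity, so the labelled cell type was not checked against RNA. Of 9 NK cell marker genes, 3 (Ncr1, Klrb1c and Nkg7) had a region within 10 kb in 2 or more lists (5.97% of coding genes did). At that distance 0 of 8 T cell, 0 of 7 B cell and 0 of 7 myeloid markers did, though the T cell gene Trat1 and the B cell gene Cd79a each had a peak in 1 list. Within 50 kb the counts were 4 of 9 NK cell and 3 of 7 B cell markers (Cd79a, Cd79b and Pax5). They were 0 of 8 for T cell and 0 of 7 for myeloid markers, against 12.2% of coding genes. The difference between marker groups was not tested.

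Sequences of 2 promoters are shown first. Of the 13 promoter windows of 9 matched genes, only the window at the first Runx3 start was overlapped by a peak. The Prdm1 window holds the most Ikaros core matches of the 13 windows. Bhlhe40 had no window, so its promoter was not examined. Each RefSeq window (GRCm38.p6) runs from 250 bases before to 50 after a transcription start and is printed 5′ to 3′ on the gene's strand. Capitals mark the Ikaros core (GGGAA, or TTCCC on the other strand) and the RUNX motif (TGTGGT, or ACCACA on the other strand). Positions are counted from 1 at the 5′ end, so the start of transcription is at position 251.
Runx3, chr4:135120395-135120694, plus strand: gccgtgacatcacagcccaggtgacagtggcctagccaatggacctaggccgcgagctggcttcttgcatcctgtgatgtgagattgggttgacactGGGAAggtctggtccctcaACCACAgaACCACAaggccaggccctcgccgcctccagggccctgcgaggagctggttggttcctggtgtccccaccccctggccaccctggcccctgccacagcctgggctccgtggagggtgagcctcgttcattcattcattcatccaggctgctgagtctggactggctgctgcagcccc
Prdm1, chr10:44458699-44458998, minus strand: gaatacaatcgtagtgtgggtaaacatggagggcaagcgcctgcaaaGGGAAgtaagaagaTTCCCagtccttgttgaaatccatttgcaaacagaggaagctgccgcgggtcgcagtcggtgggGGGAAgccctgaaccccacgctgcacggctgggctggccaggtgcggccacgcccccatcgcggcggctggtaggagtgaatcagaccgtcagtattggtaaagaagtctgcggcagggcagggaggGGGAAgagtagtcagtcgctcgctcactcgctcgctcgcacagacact

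The replicate 2 peak covered positions 1 to 140 of the Runx3 window. That stretch holds the window's 1 Ikaros core match, at position 98, and both RUNX matches, at positions 117 and 125. In the Prdm1 window the 4 core matches lie at positions 48, 62, 126 and 253, and the replicate 2 peak inside Prdm1 lay 1026 bp from the window, on the gene side. A core match is common: 62.7% of all 32851 promoter windows hold at least 1. A RUNX match is in 16.8% of them. A match describes letters and not a bound site.

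**Figure D1:**
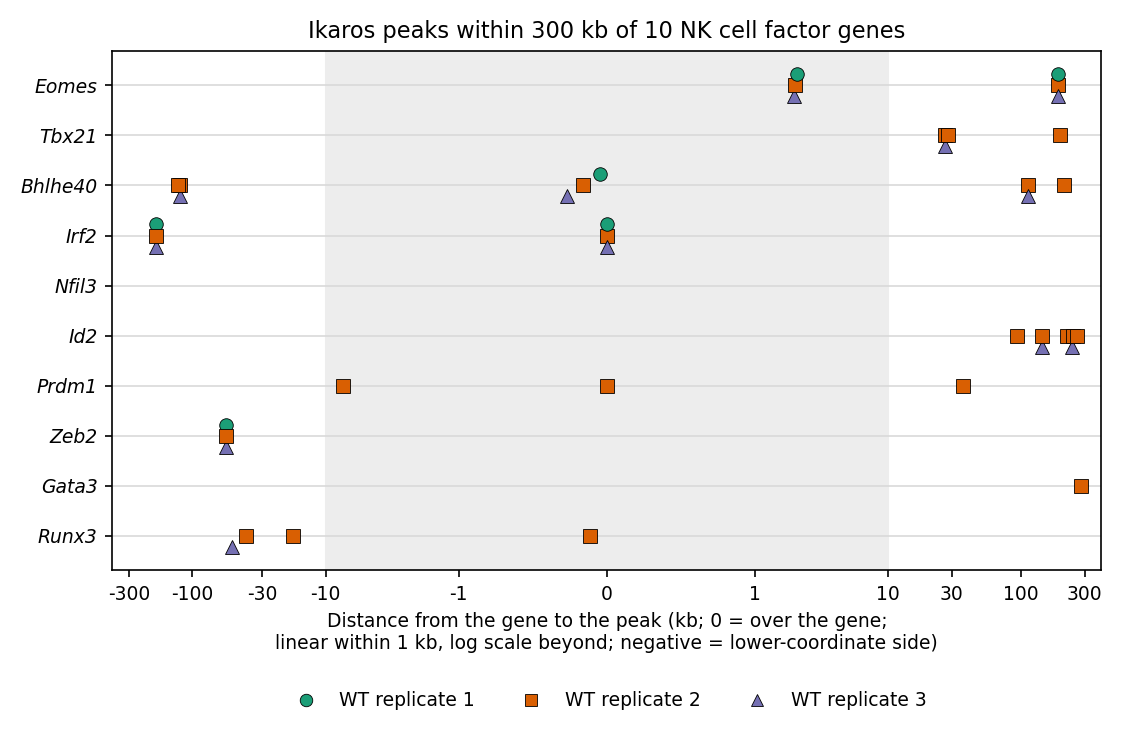
Distance in kb (horizontal axis, linear within 1 kb and logarithmic beyond) from each of the 10 genes to every peak within 300 kb, with 1 symbol for each peak and WT replicate; the grey band marks 10 kb on each side. Eomes, Bhlhe40 and Irf2 have a peak of every replicate inside the band, Prdm1 and Runx3 of replicate 2 alone, and Nfil3 has no peak in the whole range.

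The T-box factors differed in how near a shared region lay. Eomes (chromosome 9, 118478186 to 118486132) had a region in all lists at 118488112 to 118488510, beyond the end of the gene and 1.98 kb from it. Its midpoint lay 10.1 kb after the start of transcription. Fold enrichment there was 5.26, 7.91 and 6.07 in replicates 1, 2 and 3, and the percentiles were 55.6, 92.2 and 75.5. Replicate 2 was the highest and replicate 1 stood just above its list median, at 1.03 times that value. The 3 peaks had 191 bp in common, 118488199 to 118488389. The authors' gene column names Gm33460, a long noncoding RNA gene whose span the region overlaps, and not Eomes. No other coding gene lies between the region and Eomes.

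Another region in all lists, inside Itga9, which encodes an integrin subunit, lay 189 kb from Eomes, with 1 coding gene between them. Its fold enrichments were 6.91, 5.77 and 6.92, so replicate 2 was the lowest there, the reverse of its place at the nearer region.

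Tbx21 (chromosome 11, 97098007 to 97115331) encodes the other T-box factor and had no peak within 10 kb in any list. The nearest region, at 97142063 to 97142324, lay 26.7 kb away on the side of the start, inside the neighbouring gene Tbkbp1, with no coding gene between. It was listed in replicates 2 and 3, enriched 4.11-fold and 4.71-fold at percentiles of 25.7 and 39.7, below the median peak in both lists. A stronger peak, 28.3 kb away and also inside Tbkbp1, was listed in replicate 2 only, at a fold enrichment of 6.60 and a percentile of 86.4. In replicate 1 the nearest peak to Tbx21 was 1343 kb away.

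Bhlhe40 (chromosome 6, 108660629 to 108666925) had its region closest to a gene end. The region, 108659683 to 108660586, stopped 0.043 kb before the end of the gene with the lower coordinate. Fold enrichment was 5.02, 7.34 and 6.01 in replicates 1, 2 and 3, at percentiles of 47.0, 90.5 and 74.7. Replicate 1 was just under its list median and the other 2 were above theirs. At 904 bp this was the widest of the 4 regions, and 559 bp, 108659804 to 108660362, were common to all lists. The authors' column names 0610040F04Rik, a noncoding gene over the region, in place of Bhlhe40. Bhlhe40 was matched to no promoter window, so its strand and start were not given here. Whether this region overlaps the Bhlhe40 promoter was therefore not examined.

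Around Bhlhe40 lay 4 further regions within 300 kb, and 2 of them were in replicates 2 and 3. The region 113 kb above, which the authors' column gives to Arl8b, was enriched 5.07-fold and 6.98-fold there. The region 123 kb below, inside the calcium channel gene Itpr1, had 4.89 and 5.91. With 5 regions within 300 kb, Bhlhe40 and Id2 had the most of the 10 genes, and 2.97% of coding genes had as many or more. Those counts rest on replicate 2: without it Bhlhe40 had 3 and Id2 had 2, and 6.08% and 18.6% of coding genes had as many or more.

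Irf2 (chromosome 8, 46739745 to 46847458) encodes an interferon regulatory factor that can restrain interferon responses. Its region lay inside the gene at 46845250 to 46845567, 106 kb after the start and 2.05 kb before the far end, counted from the midpoint. Fold enrichment was 4.86, 7.30 and 5.32 in replicates 1, 2 and 3, and the percentiles were 41.3, 90.4 and 59.4. Replicate 1 was below its list median and replicate 3 only slightly above it. Of the peaks, 192 bp were common to all lists, 46845322 to 46845513. This was the 1 region of the 3 that the authors' column gives to the factor gene itself, and the authors mark Irf2 as a transcription factor. A much stronger region in all lists overlapped the promoter of Cenpu, a centromere protein gene, 188 kb below Irf2 with 2 coding genes between, at 10.8, 10.5 and 14.0.

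Across the regions of Eomes, Bhlhe40 and Irf2, fold enrichment ran from 4.86 to 5.26 in replicate 1, from 7.30 to 7.91 in replicate 2 and from 5.32 to 6.07 in replicate 3. Fold enrichments of different lists may not share a scale, as depth is unknown. Percentiles spanned 41.3 to 55.6 in replicate 1, which puts these regions near the middle of that list. They spanned 90.4 to 92.2 in replicate 2 and 59.4 to 75.5 in replicate 3. By percentile, the 3 genes differed less from each other within a list than each did between lists. By fold enrichment the order was Eomes, Bhlhe40, Irf2 in every list, with gaps in mean percentile (74.4, 70.7 and 63.7) smaller than the spread between lists. By −log10 q, Bhlhe40 stood above Eomes in replicate 3, at 7.07 against 5.72, and ranking by −log10 p put the mean percentile of Bhlhe40 first, at 68.5 against 67.8 for Eomes. In replicate 1 the −log10 q of these peaks ran from 3.31 to 4.34. Asking for a −log10 q of 5 or more therefore left 0 of the 10 genes with a region in all lists, and 2, Eomes and Bhlhe40, with a region in 2 or more. Under that limit 1.86% of coding genes were named by the authors' column at a region in 2 or more lists.

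**Figure D2:**
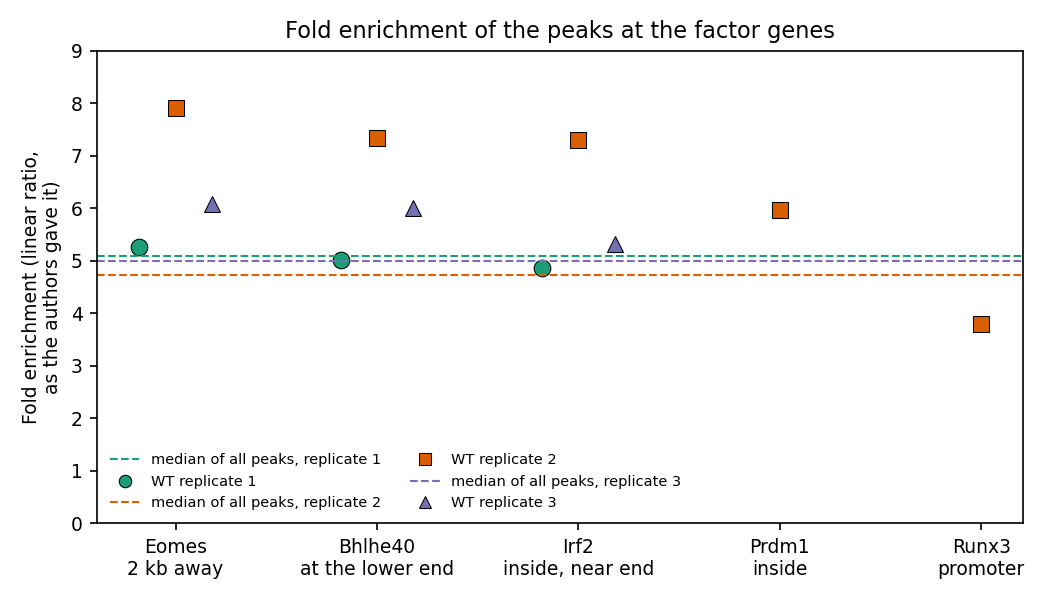
Fold enrichment (vertical axis, linear ratio as the authors gave it) of the peaks at Eomes, Bhlhe40, Irf2, Prdm1 and the Runx3 promoter, with 1 symbol for each WT replicate and a dashed line at each list's median. Replicate 2 is highest at the first 3 genes, from 7.30 to 7.91, and the Runx3 peak, at 3.79, lies below its list median of 4.73.

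Prdm1 and Runx3 had nearby peaks in replicate 2 alone. Prdm1 (chromosome 10, 44437174 to 44528558) encodes a zinc finger transcriptional repressor that promotes terminal differentiation of lymphocytes. Its peak, 44457368 to 44457673, lay inside the gene with its midpoint 1.23 kb after the start in the promoter table, at a fold enrichment of 5.96, a −log10 q of 7.28 and a percentile of 80.1. Weaker replicate 2 peaks lay 7.35 kb and 36.6 kb outside the gene, at 4.31 and 4.36. In replicates 1 and 3 the nearest peaks to Prdm1 were 2961 and 2159 kb away. That start is internal to the printed gene span, which begins farther upstream. The authors' column names Prdm1 for the first peak, without the transcription factor mark that Irf2 carries.

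The Runx3 peak (chromosome 4, 135120325 to 135120534) ended 0.111 kb before the gene span of 135120645 to 135177990 and overlapped the promoter window printed above. Runx3 encodes a Runt domain factor of cytotoxic lymphocytes. The peak was weak, with a fold enrichment of 3.79, a −log10 q of 1.95 and a percentile of 13.6. The authors' column gives it to Gm16225, a noncoding gene whose own promoter window on the other strand it also overlapped, so the rule did not take it. A further 3 peaks lay below Runx3 within 60 kb, at 17.7 and 39.8 kb in replicate 2 and at 50.5 kb in replicate 3, and none was shared. Their fold enrichments were 3.77, 5.53 and 3.80. The second start of Runx3, with its window at 135152295 to 135152594, had no peak.

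Of the 13 promoter windows of 9 matched genes, 1 was overlapped by a peak of any list, that of Runx3, and 0 by a region in 2 or more lists. Over all 32851 windows those shares were 3.94% and 2.0%. Bhlhe40 had no window, so its region in all lists, 0.043 kb from the gene span, is outside these counts. Ikaros core matches were in 8 of the 13 windows, close to the 62.7% of all windows. They came from Zeb2 (all 4 windows), Runx3, Irf2, Prdm1 and Tbx21. The AP-1 motif TGANTCA was in 2 windows, from Zeb2 and Prdm1, against 7.81% of all windows. RUNX matches were in 1, against 16.8% of all windows, and E-box matches (CANNTG) in 7, against 72.3%. The T-box motif (AGGTGTGA, or TCACACCT on the other strand) was in 0, against 1.28%. Of the 4 Zeb2 windows, 2 overlap each other and share letters. The Eomes window held none of the 5 motifs.

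The early factors had no peak nearby. Nfil3 (chromosome 13, 52967209 to 52982878), a basic leucine zipper factor, had its nearest peaks 1711, 1121 and 1966 kb away in replicates 1, 2 and 3. Id2 (chromosome 12, 25093799 to 25096092), which encodes an inhibitor of E proteins, had no peak within 93 kb. In all, 5 regions lay between 93.2 and 264 kb from Id2, all on the side of its start and with no coding gene between. Of these, 2 were in replicates 2 and 3: the region 144 kb away was enriched 4.34-fold and 3.81-fold, and the region 242 kb away 5.22-fold and 4.60-fold. The other 3 were in replicate 2 alone, with the strongest, at 6.40, 220 kb from Id2. Replicate 1 had no peak within 3777 kb of Id2.

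Zeb2 (chromosome 2, 44983512 to 45117442), a zinc finger E-box factor, had 1 region within 300 kb, and it was in all lists. It lay 55.9 kb beyond the far end of the gene and overlapped the promoter of Gtdc1, the neighbouring glycosyltransferase-like gene, at 44926875 to 44927647. Fold enrichment was 6.55, 6.00 and 4.18 in replicates 1, 2 and 3, at percentiles of 84.7, 80.7 and 21.9, so here replicate 3 was the lowest. Gata3 (chromosome 2, 9857078 to 9887953), a zinc finger factor shared with T cells, had 1 peak within 300 kb, 279 kb away in Itih5 and in replicate 2 alone, at 5.21. Between the peak and Gata3 lay 4 coding genes.

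Genes were counted with the same window for all, since the rule gave windows to Eomes and Bhlhe40 only. Within 10 kb, 3 of the 10 genes had a region in all lists, where 2.73% of the 21900 coding genes did. A peak in any list lay within 10 kb of 5 of the 10, Runx3 being the addition, against 12.4% of coding genes. By the authors' column alone, 1 (Irf2) was named at a region in all lists and at a region in 2 or more, against 2.0% and 4.38% of coding genes, and 2 (Irf2 and Prdm1) at a peak in any list, against 9.39%. Within 50 kb, 4 genes reached a region shared by 2 or more lists, Tbx21 being the addition, against 12.2%. At that distance 3 reached a region in all lists, against 5.52%, and 6 a peak in any list, against 24.1%. The 10 genes were chosen with these peaks known, and the share over coding genes is matched neither on gene length nor on open chromatin, so the counts are a description with no test. For Prdm1 and Runx3 the count rests on replicate 2: without that list, 3 of the 10 genes had a peak by the rule.

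Distances to a region in all lists showed 2 kinds of gene. Eomes, Bhlhe40, Irf2 and Zeb2 were within 56 kb, and the other 6 were 1153 to 4478 kb away. The median over the 10 genes was 1248 kb, against 1217 kb over coding genes. For a region in 2 or more lists the medians were 100 kb and 528 kb, and for a peak in any list 14.4 kb and 200 kb. That 14.4 kb lies midway between Eomes, at 1.98 kb, and Tbx21, at 26.7 kb. Without replicate 2 the medians for a peak in any list were 53.2 kb and 357 kb. As the 10 genes were chosen with these peaks known, these medians are a description and were not tested.

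**Figure D3:**
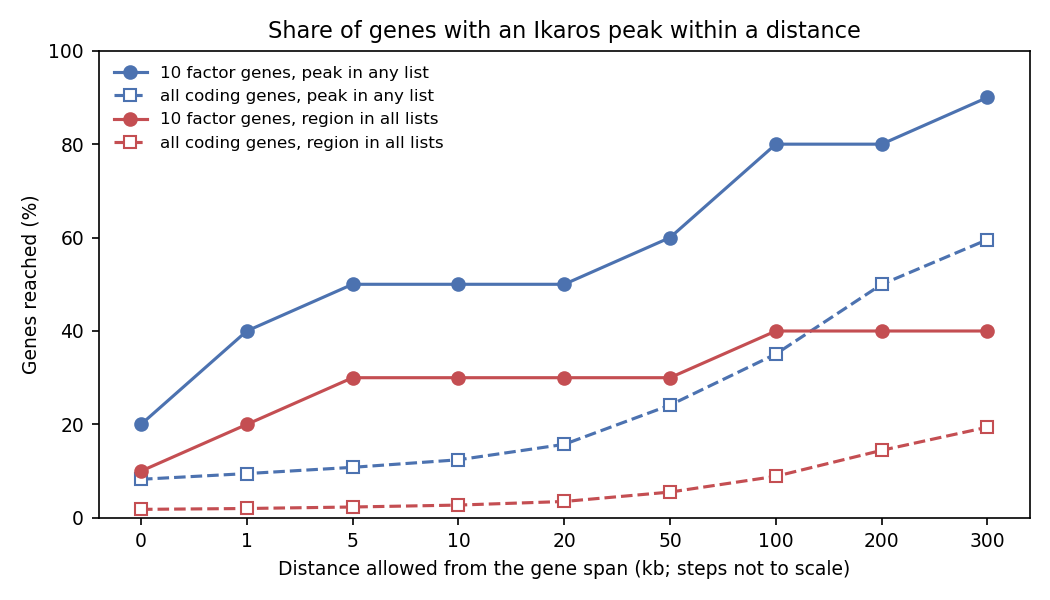
Percent of genes (vertical axis) with a peak in any list (blue) or a region in all lists (red) within each distance of the gene span in kb (horizontal axis), for the 10 factor genes (filled) and all coding genes (open). At 10 kb the factor genes stand at 5 and 3 of 10 against 12.4% and 2.73% of coding genes; the genes were chosen with these peaks known.

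Other transcription factors of NK cells were counted in the same way. Of 46 listed, 45 were coding genes in the table (Zfp683 was not), and within 10 kb a region in 2 or more lists was found for 10, against 5.97% of coding genes. These genes too were listed with earlier results of these data known. The share is matched neither on gene length nor on open chromatin, so the counts are a description and the difference was not tested. Regions in all lists lay near 4 of them, Kmt2a, Ikzf3, Lef1 and Klf13, against 2.73% of coding genes. Kmt2a, which encodes a histone methyltransferase, had fold enrichments of 9.97, 8.45 and 11.2, above the regions of Eomes, Bhlhe40 and Irf2 in every list. Near Ikzf3, which encodes the Ikaros relative Aiolos, a region 6.17 kb from the gene that the authors' column gives to Grb7 had 7.34, 6.43 and 5.55. Lef1, a Wnt pathway factor, had 5.08, 5.96 and 4.94. Klf13 was weaker, with 4.60, 3.54 and 4.32 at percentiles of 29.9, 5.09 and 26.4, below the list median each time. Tox, an HMG box factor of NK cell development, had 6.27 and 6.28 in replicates 2 and 3. Smad3 and Cbfb, the partner of RUNX proteins, each had a region in 2 lists, as did Myc and Tcf12. For Smad3 the values were 5.28 and 5.33 in replicates 1 and 3. Replicate 2 was the highest of the lists by percentile at Eomes, Bhlhe40, Irf2 and Lef1, but not at Kmt2a, Ikzf3 or Klf13.

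**Figure D4:**
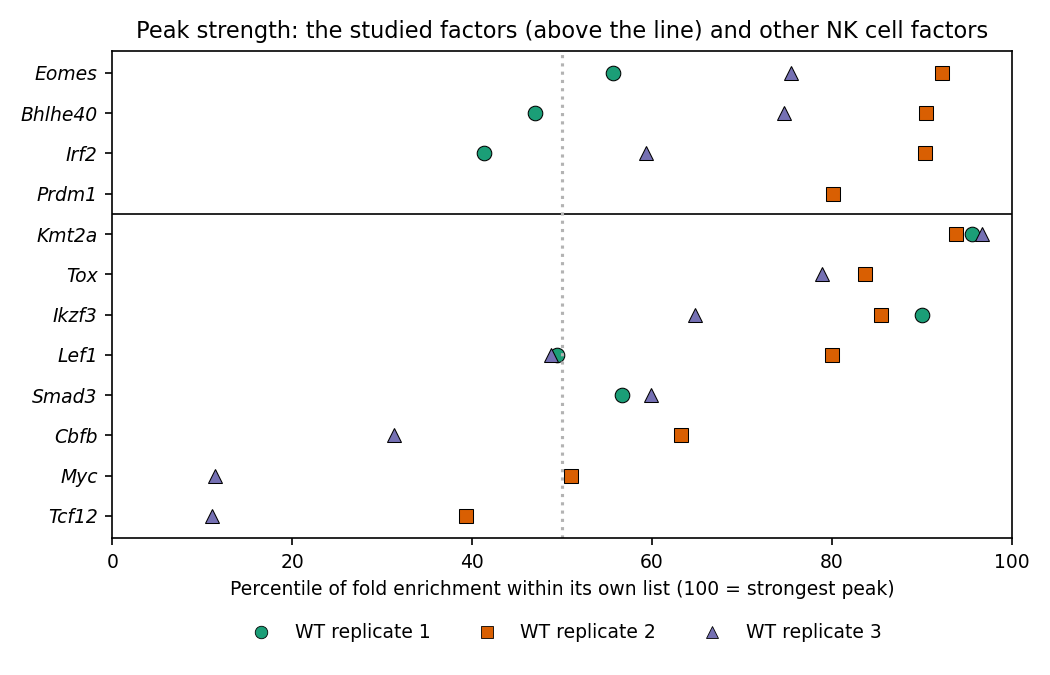
Percentile of fold enrichment within its own list (horizontal axis, 100 being the strongest peak) for the regions of Eomes, Bhlhe40, Irf2 and Prdm1 (above the line) and the 8 other NK cell factors with the highest mean percentile (below it), with 1 symbol for each WT replicate. Kmt2a lies above 93 in every list, while Eomes, Bhlhe40 and Irf2 run from 41.3 to 92.2.

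Relatives of the 10 factors by family were counted within 10 kb too. Of 40 relatives (T-box, IRF, PAR bZIP, ID, PRDM, ZEB, GATA and RUNX genes and Bhlhe41), 7 of which are also among the other NK cell factors, 0 had a region in all lists, against 2.73% of coding genes. Within 10 kb, 4 of the 40 had a peak in any list, against 12.4% of coding genes. With 40 genes, both counts are close to the shares of coding genes. Runx1, Runx2, Zeb1, Bhlhe41 and the other GATA genes had no peak of any list at that distance. The difference between the factors and their relatives was not tested.

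Coding genes most alike in strength, over 3 lists and 499 other regions in all lists, were Tjp3 and Ap5b1 for Eomes, Ptpn3 and Ap5b1 for Bhlhe40, and Tmem19 and Leprot for Irf2. Their percentiles differed from those of the factor by at most 5.99 and 6.78, 5.09 and 7.60, and 6.05 and 6.42. With 3 values for each gene this likeness is loose.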

How the data were processed

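Per the submitters' processing notes, Subread, Picard, SAMtools, MACS2, edgeR 3.20.0 and mouse build mm10 were used, with no roles given; the control library, peak threshold and gene annotation are not given in the sources used here. Per the file headers, peaks carry the authors' fold enrichment (a linear ratio), their −log10 p and q values, a gene and its distance in bp. The authors' deposited score equalled the −log10 q times 10, without decimals, in 100% of rows. Peak names show that the authors called peaks separately in each library.

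Rows were reduced to 1 per peak (800, 2414 and 1595 rows). Peak numbers not in the lists, 41, 50 and 42, were not analysed here. Peaks sharing at least 1 bp were merged into regions; distances are from a region or peak to the RefSeq gene span, and exons and UTRs were not assigned. The 10 genes and all gene lists were chosen with earlier results of these data known. Named genes were all 10 factors; up to 8 other NK cell factors and family relatives with a region in 2 or more lists within 10 kb, by mean percentile; and 2 genes most alike in percentiles for each factor with a region in all lists. An item among the relatives is not reported here. No test was run. Merging and gene assignment were tested on simulated data. Python 3.11.15, NumPy 2.4.6, pandas 2.3.3 and matplotlib 3.10.9 were used. The alternatives tried are in the closing section.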

Additional observations from a re-analysis of the deposited data

How the results depend on the processing

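No paired analysis was possible because only WT lists were used and nothing was compared between groups. Stricter thresholds and narrower rules leave fewer peaks by construction; other causes of change were not tested. By the authors' gene column alone, 1 gene had a region in all lists, 1 in 2 or more and 2 a peak in any list, against 3, 3 and 4. With 100 kb for every gene, chosen after seeing the data, 5 had a region in 2 or more lists, against 18.8% of coding genes. At that distance 8 had a peak in any list, against 35.1% of coding genes. Under a −log10 q limit of 5, 0 had a region in all lists. The share of coding genes with a region in all lists under that limit is not given here. Without 1 replicate, 3 genes kept a region in both remaining lists each time, and 3 to 4 had a peak. For a peak in any list no share of coding genes is given for those runs. A shared length of 50% of the shorter peak and equal list lengths changed none of the 3 counts. Coding genes named at a region shared by 2 or more lists made up 4.38% by the gene column. That share was 12.2% with 50 kb, 18.8% with 100 kb, 1.86% under the −log10 q limit of 5, and from 2.16% to 3.90% when 1 replicate was left out. Ranking by −log10 p put the mean percentiles of Eomes, Bhlhe40 and Irf2 at 67.8, 68.5 and 57.9. Distances and region counts without replicate 2 were also chosen after seeing the data. Depth is unknown, so a gene with no peak cannot be told from a weakly bound one.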
